A study of Mus musculus with 2 samples.

Results

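Wnt ligands, their receptors and the secreted proteins that hold them back were followed through 2 single-cell transcriptome libraries made from the palatal gingiva of mice. The members were taken by symbol alone. No measured value enters the rule, although earlier results of these data were known when the members were chosen. They are every gene whose symbol is Wnt, Fzd, Sfrp, Dkk or Rspo followed by a number, together with Sostdc1, Frzb, Apcdd1, Lrp5, Lrp6, Axin2, Lgr4, Lgr5 and Lgr6. This gave 52 of the 32285 genes in the deposited matrices, namely 19 Wnt ligands, 10 Frizzled receptors, 4 Sfrp, 4 Dkk and 4 Rspo genes, 2 antisense RNAs (Fzd10os and Rspo4os) and the 9 genes given by name.

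Both groups were female C57BL/6 mice (C57BL/6J wild type in the study's methods), 8 to 12 weeks of age, whose palate received 3 µl of a Toll-like receptor (TLR) ligand at 1 µg/ml under an oral appliance for 1 h. The groups were CpG ODN, an unmethylated CpG oligonucleotide that is a TLR9 ligand, and Porphyromonas gingivalis lipopolysaccharide (LPS), labelled as a TLR2/4 ligand. Palatal gingiva was taken at day 4, cells were released with collagenase II and then trypsin, and the cells of 4 mice, in equal numbers, were pooled into 1 droplet-based 3′ library per ligand. No untreated library was analysed here, so every difference between groups below is a difference between the ligands and gives no direction relative to untreated tissue. With 1 library per ligand no test between the ligands was possible. Ligand, mice, digestion and library cannot be told apart, and all intervals are 95% intervals of counting error only.

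Wnt proteins are lipid-modified, short-range signals that bind Frizzled receptors together with the co-receptors LRP5 or LRP6 and thereby stabilise β-catenin, which acts with TCF and LEF factors in the nucleus. R-spondins, through their receptors LGR4, LGR5 and LGR6, protect Frizzled proteins from removal by the ubiquitin ligases RNF43 and ZNRF3. The SFRP proteins and FRZB bind Wnt proteins outside the cell, and DKK1, DKK2, DKK4 and SOSTDC1 act on the LRP co-receptors. Dkk3 was counted with the antagonists by its symbol alone, and no inhibition by it was measured. APCDD1 is a membrane-bound inhibitor, and AXIN2 is both a widely used transcriptional target and a feedback inhibitor of the pathway. In stratified epithelia such as gingiva and skin, Wnt signals are known for their part in maintaining the basal layer, and the connective tissue below is a known source of R-spondins and antagonists.

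Levels are given as unique molecular identifiers (UMIs) of a gene in every 1000000 UMIs of the same cells (CPM). The assay counts the 3′ ends of transcripts, so values were not divided by gene length and are compared between groups of cells, not between genes. The analysis kept cells with 800 or more detected genes, 4888 of 6219 barcodes after CpG ODN with a median of 11077.5 UMIs, and 1277 of 2016 after LPS with a median of 22680 UMIs. The members together held 46576 UMIs after CpG ODN and 27148 after LPS, or 6.6 and 7.31 of every 10000 UMIs. In the kept cells 1 barcode occurred in both libraries. Clusters were formed with the members and 78 further Wnt pathway genes held out, and were named from marker genes. Over 2-fold above the other cells were 12 of 14 markers in the epithelial-like cells (3761 in the CpG ODN and 989 in the LPS library), 10 of 10 in the fibroblast-like cells (236 and 53), 8 of 8 in the endothelial-like cells (49 and 24) and 8 of 8 in the mural-like cells (65 and 16). Within the epithelium, basal-like (1086 and 266 cells) and upper keratinocytes (304 and 94) had 9 of 10 and 10 of 10 of their markers over 2-fold, whereas the lower spinous-like cells (773 and 209) had 1 of 8, Krt76, so that this name is a weak one. Of the upper cells, 274 were in cluster 9, which scored highest on the lower spinous list and was named upper by its count of upper markers. The other 124, in cluster 13, scored highest on the upper list. The levels of the 41 members that reached 20 UMIs are shown by class and library in the heat map.

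**Figure D1:**
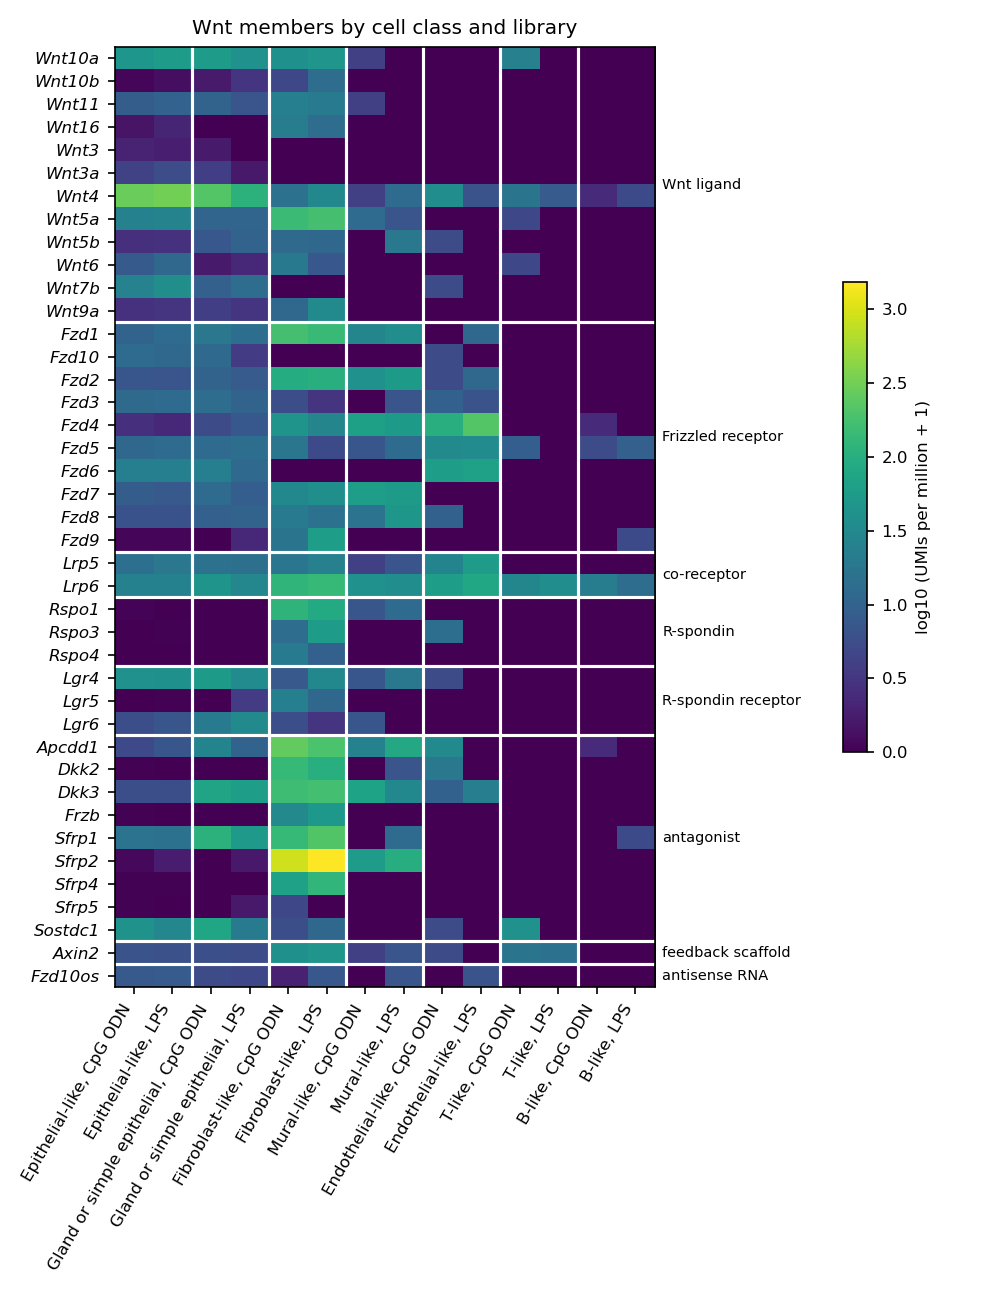
Level of each of the 41 members with at least 20 UMIs (rows, ordered by role) in 7 classes of cells and both libraries (columns), as log10 of CPM plus 1. Brighter colours are higher levels. Wnt4 is brightest in the epithelial-like columns at 287 and 320 CPM, and Sfrp2 in the fibroblast-like columns at 896 and 1531.

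The starts of 6 members are printed because they stand for the patterns described below: Axin2 as the pathway's usual target, Wnt4 as the ligand found throughout the epithelium, Fzd7 and Fzd1 as receptors whose CPM was over 2-fold higher in basal-like than in upper keratinocytes, a direction that depended on the processing as given below, and Dkk2 and Frzb as antagonists with 95.9% and 87.1% of their UMIs in fibroblast-like cells. Each is the 250 bases before a transcription start in RefSeq (build GRCm38.p6), 5′ to 3′ on the strand of the gene. Capitals mark CTTTGA or CTTTGT read on either strand, a core of the motif that TCF and LEF factors are known to bind, so that a match on the opposite strand appears as TCAAAG or ACAAAG.
Axin2, chr11:108920099-108920348, plus strand: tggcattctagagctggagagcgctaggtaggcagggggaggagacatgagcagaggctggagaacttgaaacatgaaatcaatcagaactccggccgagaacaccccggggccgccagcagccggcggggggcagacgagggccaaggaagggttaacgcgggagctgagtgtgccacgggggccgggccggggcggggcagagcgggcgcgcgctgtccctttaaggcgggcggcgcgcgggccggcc
Wnt4, chr4:137277385-137277634, plus strand: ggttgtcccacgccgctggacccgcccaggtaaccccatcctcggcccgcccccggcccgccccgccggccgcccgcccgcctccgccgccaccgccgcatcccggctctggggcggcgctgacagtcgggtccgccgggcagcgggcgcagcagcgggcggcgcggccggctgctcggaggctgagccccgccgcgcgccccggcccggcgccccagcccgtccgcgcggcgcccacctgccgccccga
Fzd7, chr1:59481897-59482146, plus strand: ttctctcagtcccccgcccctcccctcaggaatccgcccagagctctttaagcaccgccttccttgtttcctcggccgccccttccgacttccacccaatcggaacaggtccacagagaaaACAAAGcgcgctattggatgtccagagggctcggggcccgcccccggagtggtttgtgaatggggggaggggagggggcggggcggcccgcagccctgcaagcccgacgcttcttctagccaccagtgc
Fzd1, chr5:4758217-4758466, minus strand: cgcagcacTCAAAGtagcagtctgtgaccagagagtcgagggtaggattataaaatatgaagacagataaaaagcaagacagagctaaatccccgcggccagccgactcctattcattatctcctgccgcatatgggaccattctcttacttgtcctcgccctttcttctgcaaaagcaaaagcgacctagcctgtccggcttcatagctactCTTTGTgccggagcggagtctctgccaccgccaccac
Dkk2, chr3:132085042-132085291, plus strand: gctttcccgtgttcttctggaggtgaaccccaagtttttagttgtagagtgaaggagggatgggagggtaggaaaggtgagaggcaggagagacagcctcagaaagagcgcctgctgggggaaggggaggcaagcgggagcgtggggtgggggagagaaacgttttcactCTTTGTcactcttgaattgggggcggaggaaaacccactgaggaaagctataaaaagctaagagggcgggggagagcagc
Frzb, chr2:80447397-80447646, minus strand: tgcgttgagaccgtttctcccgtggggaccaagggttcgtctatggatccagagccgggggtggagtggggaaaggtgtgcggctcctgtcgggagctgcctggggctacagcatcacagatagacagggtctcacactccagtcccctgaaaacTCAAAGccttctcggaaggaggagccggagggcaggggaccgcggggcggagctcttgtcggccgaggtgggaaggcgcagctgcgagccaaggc

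No match lay in these windows of Axin2 or Wnt4. Fzd7 held 1 match on the minus strand, 129 bases before the start, and Fzd1 held 2, at 242 and 37 bases before it. Dkk2 held 1 at 80 bases and Frzb 1 at 95 bases before the start. A promoter was listed for 31 of the 52 members, and 8 of these 31 (25.8%) held at least 1 match, beside 8319 of 27025 genes in the same table (30.8%). A match is a description of the letters and not a binding site, and draws no line between the members and other genes.

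The ligands and the antagonists were divided between epithelium and connective tissue. Of the 41 members with at least 20 UMIs, 24 had their highest CPM over both libraries in fibroblast-like cells, beside 14.9% of all 15468 genes that reached 20 UMIs, where only classes with at least 50 cells were ranked. A further 8 were highest in epithelial-like cells (9.04% of all genes), 4 in endothelial-like cells (Fzd4, Fzd5, Fzd6 and Lrp5, beside 15.1%), 3 in gland-like or simple epithelial-like cells (Lgr4, Lgr6 and Sostdc1, beside 10.9%) and 2 in mural-like cells (Fzd7 and Fzd8, beside 14.5%). Among the smaller classes, 10 of the 41 had a higher level than in the class that led them, from 2 to 50 UMIs. In the 34 Schwann-like cells these were Sostdc1 at 303 CPM (198 to 444), Sfrp5 at 221 CPM (133 to 346), Fzd3 at 128 CPM (64.0 to 229), Frzb and Wnt6, and in the 17 cells of the unnamed cluster 22 they were Sfrp1 at 494 CPM (366 to 651), Fzd7 at 188 CPM (113 to 293), Lgr4 at 109 CPM (54.2 to 194), Lrp5 and Wnt5b. In 28 of the 41 the leading class was over 2-fold above the second, and in 32 the same class led in both libraries. The other 9, in which the libraries named different classes, were Fzd3, Fzd8, Lgr4, Rspo3, Sfrp5, Sostdc1, Wnt10a, Wnt5b and Wnt6. Of the remaining members, 8 had 1 to 19 UMIs (Dkk1, Dkk4, Rspo2, Wnt1, Wnt2, Wnt2b, Wnt7a and Wnt8a), and Wnt8b, Wnt9b and Rspo4os had none, so these were not detectable at this depth in any class.

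Among the ligands, 5 were highest in epithelial-like cells (Wnt3, Wnt3a, Wnt4, Wnt7b and Wnt10a) and 7 in fibroblast-like cells (Wnt5a, Wnt5b, Wnt6, Wnt9a, Wnt10b, Wnt11 and Wnt16). Each of these 7 still had most of its UMIs in the far larger epithelial-like class, from 58.8% (Wnt10b) to 96.2% (Wnt6). Over both libraries Wnt6 was 14.7 CPM in fibroblast-like and 8.25 CPM in epithelial-like cells, and after LPS the epithelial-like class led. Wnt4, a ligand known from kidney and female reproductive tract development, had 18481 UMIs in epithelial-like cells of the CpG ODN library (287 CPM, 283 to 291) and 10931 in those of the LPS library (320 CPM, 314 to 326). In fibroblast-like cells it was 14.7 CPM (8.23 to 24.2) and 29.5 CPM (16.1 to 49.5) from 15 and 14 UMIs, of which 11 and 13 came from 8 keratin-led cells described below; without those cells it was 4.23 CPM (1.15 to 10.8) and 2.42 CPM (0.0613 to 13.5). Of all Wnt4 UMIs 98.1% lay in the epithelium. Wnt7b followed the same division, with 24.5 CPM (23.3 to 25.7) and 36.3 CPM (34.3 to 38.4) in epithelial-like cells and not 1 UMI in fibroblast-like cells of either library, where a count of 0 allows up to 3 UMIs. Wnt3a was 3.31 CPM (2.88 to 3.78) and 4.68 CPM (3.98 to 5.46) in epithelial-like cells, again with 0 UMIs in fibroblast-like cells. Wnt10a, a ligand tied by human genetics to tooth and other ectodermal appendages, was counted on both sides, at 45.7 CPM (44.0 to 47.4) and 56.3 CPM (53.8 to 58.8) in epithelial-like cells and 39.2 CPM (28.0 to 53.4) and 44.2 CPM (27.4 to 67.6) in fibroblast-like cells. Of those 61 fibroblast-like UMIs, 60 lay in 16 cells of only 2 of the 7 sub-clusters described below, 48 in F4 and 12 in F6, so that the class level does not describe most of its cells.

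Wnt5a, the main ligand of the β-catenin-independent branch, was the reverse of Wnt4 in level. It had 148 CPM (125 to 174) after CpG ODN and 175 CPM (139 to 217) after LPS in fibroblast-like cells, and 23.9 CPM (22.8 to 25.2) and 25.3 CPM (23.6 to 27.0) in epithelial-like cells. Because the epithelial-like cells were far more numerous and held more UMIs each, 89.8% of Wnt5a UMIs nevertheless came from them. Wnt11, another ligand of that branch, was 22.5 CPM (14.3 to 33.8) and 19 CPM (8.67 to 36.0) in fibroblast-like cells against 7.72 CPM (7.05 to 8.43) and 9.12 CPM (8.14 to 10.2) in epithelial-like cells. Wnt16 was 20.6 CPM (12.7 to 31.5) and 12.6 CPM (4.64 to 27.5) in fibroblast-like cells and 0.481 CPM (0.327 to 0.683) and 1.14 CPM (0.811 to 1.56) in epithelial-like cells. Some of the ligand genes are neighbours in the genome. Wnt6 and Wnt10a lie 6193 bases apart on chromosome 1 (GRCm38, GENCODE M21), and both were found in basal-like keratinocytes and, among fibroblast-like cells, mostly in the sub-cluster F4 described below (14 of 22 and 48 of 61 UMIs). Wnt3a and Wnt9a, 16175 bases apart on chromosome 11, differed. Wnt3a had 0 UMIs in fibroblast-like cells, whereas Wnt9a was highest there at 17.4 CPM. Of the pair Wnt1 and Wnt10b, 11706 bases apart on chromosome 15, Wnt1 had 3 UMIs in all. Of Wnt3 and Wnt9b, 24328 bases apart on chromosome 11, Wnt9b had 0.

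Receptors were spread over more classes than ligands. The 10 Frizzled genes were led by fibroblast-like cells in 3 (Fzd1, Fzd2 and Fzd9), endothelial-like cells in 3, epithelial-like cells in 2 (Fzd3 and Fzd10) and mural-like cells in 2. Fzd1 was 177 CPM (152 to 205) after CpG ODN and 143 CPM (111 to 182) after LPS in fibroblast-like cells and 9.44 CPM (8.71 to 10.2) and 11.8 CPM (10.7 to 13.0) in epithelial-like cells. Fzd6, a receptor known for hair and epidermal polarity, showed the opposite, with 1479 and 770 UMIs in epithelial-like cells (23.0 CPM, 21.8 to 24.2, and 22.5 CPM, 20.9 to 24.2), 57.7 CPM (30.7 to 98.7) and 66.4 CPM (34.3 to 116) in endothelial-like cells, and 0 UMIs in fibroblast-like cells of both libraries. Fzd10 had likewise 12.1 CPM (11.2 to 13.0) and 10.9 CPM (9.82 to 12.1) in epithelial-like cells and 0 UMIs in fibroblast-like cells. Its neighbour Fzd10os, transcribed from the other strand with 150 bases between the 2 genes, was also led by epithelial-like cells, at 6.72 CPM (6.11 to 7.39) and 7.25 CPM (6.37 to 8.21). Whether the counting used strand is not given in the sources used here, but these gene models do not overlap.

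Fzd4, the Frizzled receptor of retinal and brain vessels, was 97.7 CPM (61.2 to 148) and 216 CPM (153 to 295) in endothelial-like cells, from 22 and 39 UMIs in 49 and 24 cells. Fzd7 was 60.7 CPM (37.1 to 93.8) and 53.3 CPM (24.4 to 101) in mural-like cells and in fibroblast-like cells 29.4 CPM (19.8 to 42.0) and 37.9 CPM (22.5 to 59.9). The co-receptor Lrp6 was 121 CPM (100 to 144) and 137 CPM (106 to 175) in fibroblast-like cells and 23.9 CPM (22.8 to 25.2) and 23.8 CPM (22.2 to 25.5) in epithelial-like cells. The other co-receptor, Lrp5, showed a flatter profile, with 16.7 CPM (9.71 to 26.7) and 23.2 CPM (11.6 to 41.5) in fibroblast-like cells beside 13.7 CPM (12.8 to 14.7) and 17.4 CPM (16.1 to 18.9) in epithelial-like cells, whose intervals overlap in both libraries.

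R-spondin levels were highest in fibroblast-like cells. Over both libraries the receptors Lgr4 and Lgr6 were highest by level in gland-like cells, at 42.6 and 26.4 CPM, against 39.2 and 5.22 CPM in epithelial-like cells. The epithelial-like class held 95.7% of the Lgr4 UMIs and 85.5% of those of Lgr6. It also held most UMIs of all genes, 98601584 against 1495101 in fibroblast-like cells, so these shares do not mark a receptor as epithelial. Summed over the Rspo genes, fibroblast-like cells held 151 CPM (128 to 177) after CpG ODN and 152 CPM (119 to 191) after LPS, whereas epithelial-like cells held 5 and 2 UMIs in all, or 0.0777 CPM (0.0252 to 0.181) and 0.0585 CPM (0.00708 to 0.211). Rspo1 made up most of this with 118 and 42 UMIs in fibroblast-like cells (116 CPM, 95.7 to 138, and 88.5 CPM, 63.8 to 120). Rspo3 followed with 13 and 26 UMIs and Rspo4, which is known for its role in nails, with 20 and 4. All 24 UMIs of Rspo4 were in fibroblast-like cells. By level, Lgr4 was 39.5 CPM (37.9 to 41.0) and 38.8 CPM (36.7 to 40.9) in epithelial-like cells, 6.86 CPM (2.76 to 14.1) and 29.5 CPM (16.1 to 49.5) in fibroblast-like cells. Lgr6 was highest in gland-like cells at 20.0 CPM (13.3 to 28.9) and 32.4 CPM (24.0 to 42.9). Lgr5, known as a stem cell marker of intestine and hair follicle, was nearly absent from epithelial-like cells with 1 and 2 UMIs, and had 23 and 5 UMIs in fibroblast-like cells (22.5 CPM, 14.3 to 33.8, and 10.5 CPM, 3.42 to 24.6).

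By level, fibroblast-like cells led 8 of the 9 antagonists with at least 20 UMIs, although the far larger epithelial-like class held more of their UMIs in all, 6095 against 2850. One of the 8, Sfrp5, had only 26 UMIs and 15.4% of them in fibroblast-like cells. Sfrp2 had 914 and 727 UMIs there (896 CPM, 839 to 956, and 1531 CPM, 1422 to 1647), which was 95.5% of its UMIs in all cells, and 12 and 28 UMIs in the much larger epithelial-like class. Dkk2 had 137 and 48 UMIs, or 134 CPM (113 to 159) and 101 CPM (74.5 to 134), against 2 and 0 in epithelial-like cells. Apcdd1 was 263 CPM (232 to 296) and 190 CPM (152 to 233) in fibroblast-like cells and 4.08 CPM (3.61 to 4.61) and 6.11 CPM (5.31 to 7) in epithelial-like cells. Frzb had 31 and 23 UMIs and Sfrp4 66 and 58 UMIs in fibroblast-like cells, with at most 3 in epithelial-like cells of either library.

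Sostdc1, known as an inhibitor of both Wnt and BMP signalling in tooth development, was the exception. It had 2630 and 980 UMIs in epithelial-like cells (40.8 CPM, 39.3 to 42.4, and 28.6 CPM, 26.9 to 30.5) beside 5 and 5 in fibroblast-like cells. Sfrp1 and Dkk3 were shared: Sfrp1 was 134 CPM (113 to 159) and 206 CPM (168 to 252) in fibroblast-like cells, 110 CPM (93.3 to 129) and 52.3 CPM (41.4 to 65.2) in gland-like cells and 15.4 CPM (14.5 to 16.4) and 14.4 CPM (13.2 to 15.8) in epithelial-like cells. Taken as a group, antagonists summed to 1686 CPM (1607 to 1767) and 2380 CPM (2243 to 2523) in fibroblast-like cells and to 65.5 CPM (63.5 to 67.5) and 55.0 CPM (52.5 to 57.5) in epithelial-like cells. Axin2 was 38.2 CPM (27.2 to 52.3) and 44.2 CPM (27.4 to 67.6) in fibroblast-like cells and 5.62 CPM (5.06 to 6.23) and 5.20 CPM (4.47 to 6.03) in epithelial-like cells.

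Of the 78 other genes of the pathway, 71 reached 20 UMIs, and 27 of these were highest in fibroblast-like cells (14.9% of all genes), 12 in endothelial-like (15.1%), 9 in mural-like (14.5%), 8 in epithelial-like (9.04%), 8 in T-like (10.2%) and 5 in gland-like cells (10.9%). Wif1, a secreted Wnt-binding inhibitor, had 552 and 397 UMIs in fibroblast-like cells (541 CPM, 497 to 588, and 836 CPM, 756 to 923) and 37 and 11 in epithelial-like cells. Nkd1, an intracellular feedback inhibitor, had its highest level over both libraries in mural-like cells, unlike Axin2, which was highest in fibroblast-like cells. Nkd1 was 54.9 CPM (41.5 to 71.3) and 42.1 CPM (25.7 to 65.1) in fibroblast-like cells. In epithelial-like cells it was 0.264 CPM (0.154 to 0.423) and 0.117 CPM (0.0319 to 0.299). Between fibroblast-like and epithelial-like cells alone, Nkd1 and Axin2 were higher on the same side. The transcription factor Lef1 went the other way, with 1 and 0 UMIs in fibroblast-like cells and 174 and 87 in epithelial-like cells, and its level was highest in T-like cells.

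Within the epithelium, many members differed between the basal-like and the upper keratinocytes. In the 28 members with at least 20 UMIs over these cells in each library, 16 were over 2-fold higher in basal-like cells in both libraries, beside 35.7% of 10496 genes that met the same condition. Only Wnt7b was over 2-fold lower in both, beside 11.1% of those genes. The upper cells held a median of 35381.5 UMIs after CpG ODN and 68921 after LPS, against 9197.5 and 17769.5 in the basal-like cells, and the median gene had 1.59 and 1.67 times the CPM in basal-like cells. The median member had 3.61 and 2.31 times. Dividing each library's ratios by the median ratio of its own genes with UMIs in both layers left 12 members over 2-fold higher and 3 lower. With the medians of 1.59 and 1.67 the ratio of Wnt4 was 0.505 after CpG ODN, which is not past 2-fold lower. Counting UMIs per cell in place of CPM left 10 higher and 10 lower. The shares of all genes under these scalings are not given, so these counts have no background beside them. The layers were formed without the members, but both values come from the same cells of 1 library per ligand, so they are given with counting intervals and without a test.

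**Figure D2:**
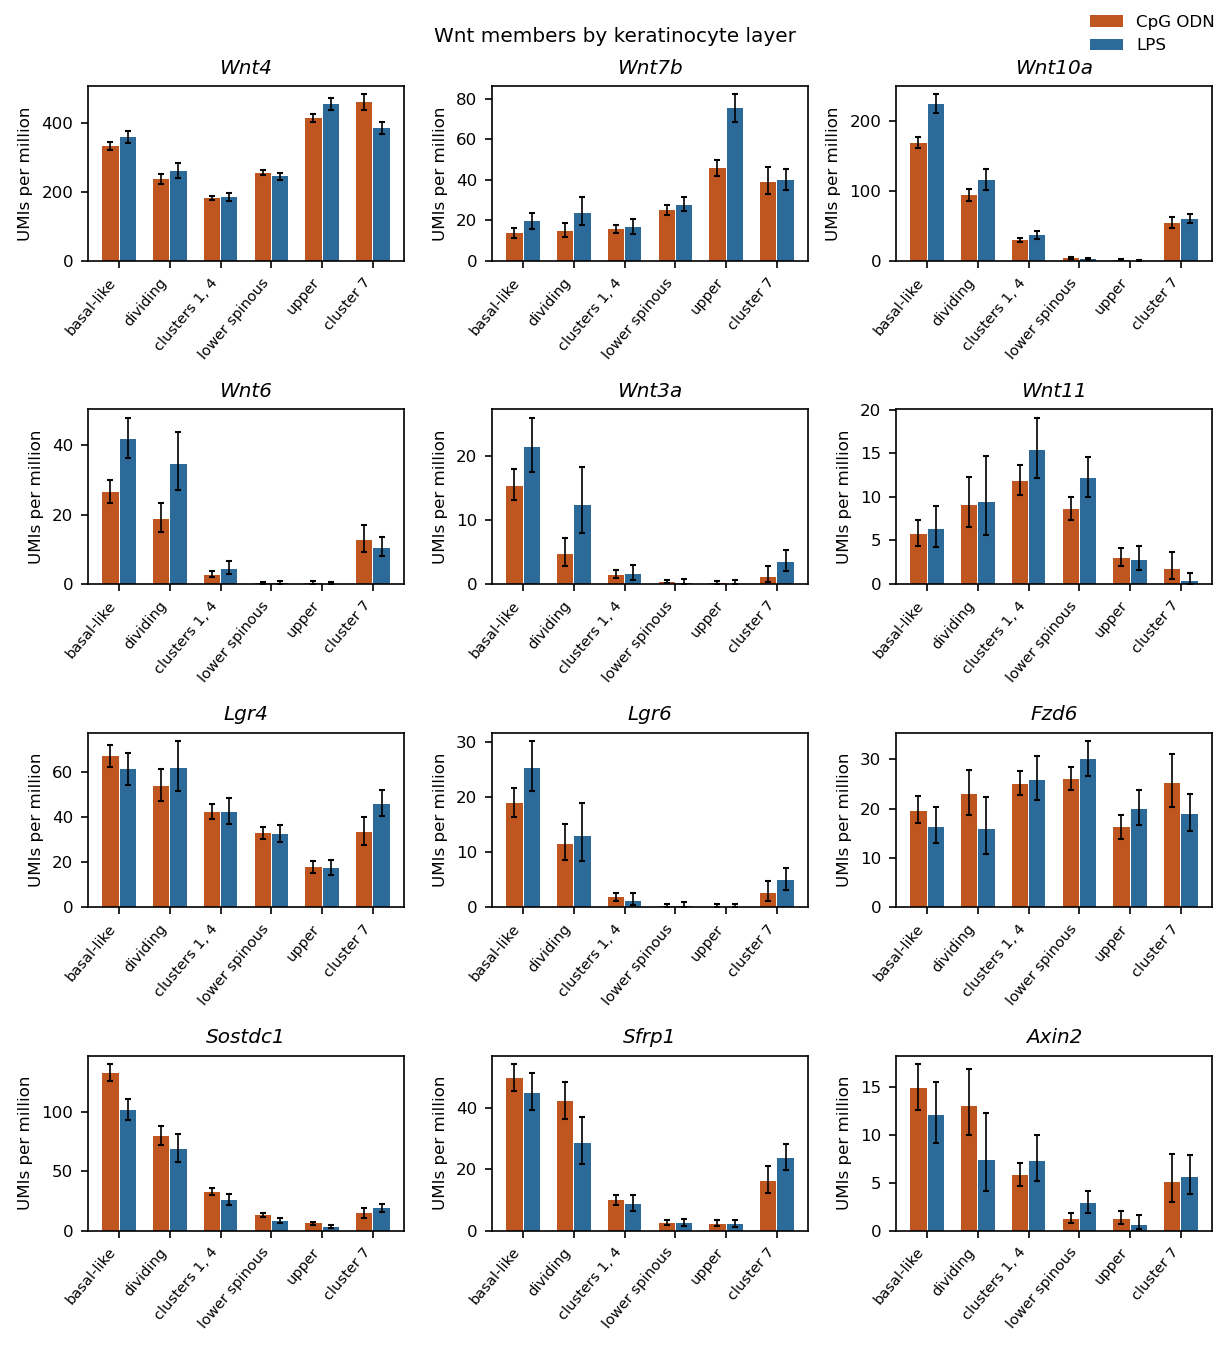
CPM of 12 members in the basal-like, dividing, intermediate (clusters 1 and 4), lower spinous-like and upper keratinocytes and in cluster 7, for the CpG ODN and LPS libraries; bars start at 0 and error bars are 95% Poisson intervals. Wnt10a is 169 and 225 in basal-like cells and 1.76 and 0.310 in upper cells, while Wnt4 is 333 and 358 in the former and 414 and 454 in the latter.

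Among the ligands compared, Wnt3, Wnt3a, Wnt5b, Wnt6 and Wnt10a were over 2-fold higher in basal-like cells in both libraries. Only Wnt7b was lower, and Wnt4, Wnt5a, Wnt9a and Wnt11 were neither. Wnt10a had 1743 UMIs in basal-like and 19 in upper cells after CpG ODN, 169 CPM (161 to 177) against 1.76 CPM (1.06 to 2.75), which is a ratio of 96.1 (61.3 to 160). After LPS it had 1102 and 2 UMIs, 225 CPM (212 to 239) against 0.310 CPM (0.0376 to 1.12). Its level was stepped, with 93.9 and 116 CPM in dividing cells, 29.8 and 36.7 CPM in clusters 1 and 4, and 3.74 and 2.32 CPM in lower spinous-like cells. Wnt6 had 273 UMIs in basal-like and 3 in upper cells after CpG ODN, a ratio of 95.3 (32.3 to 465). After LPS it had 205 and 0, which is 89.9-fold higher when 3 UMIs are assumed in the upper cells (lower limit of the interval 72.5). Wnt3a, which signals through β-catenin, had 158 and 1 UMIs after CpG ODN and 105 and 0 after LPS. In the latter library it was 46.1-fold higher with 3 UMIs assumed (lower limit 36.8). Wnt3 and Wnt5b were lower in count but on the same side. Wnt3 had 42 and 0 UMIs and 20 and 0, or 14.7-fold (lower limit 11.4) and 8.77-fold (lower limit 6.50) with 3 UMIs assumed. Wnt5b had 71 and 4 after CpG ODN and 28 and 0 after LPS. With layers set by keratin UMIs, where 23 cells were basal after LPS, the LPS ratios fell below 2-fold. They were 1.91 for Wnt10a, 1.89 for Wnt6 and 1.35 for Wnt5b. Those of the same members after CpG ODN and of Wnt3a in both libraries stayed over 2-fold.

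Wnt7b lay on the other side. It was 13.6 CPM (11.4 to 16) in basal-like, 25 CPM (22.8 to 27.4) in lower spinous-like and 45.7 CPM (41.8 to 49.9) in upper cells after CpG ODN, and 19.4 CPM (15.7 to 23.7), 27.8 CPM (24.5 to 31.3) and 75.2 CPM (68.7 to 82.2) after LPS. The upper level was 3.36 times (2.78 to 4.09) and 3.88 times (3.11 to 4.89) the basal-like one. With layers set by keratin UMIs, where only 90 and 23 cells were basal, the basal-like over upper ratio was 0.745 after CpG ODN and 1.47 after LPS, so that 2-fold was lost in the former and the direction turned in the latter. Wnt4 was present throughout. Its CPM was lowest in clusters 1 and 4 at 182 (175 to 188) and 185 (173 to 197), and the basal-like to upper ratio was 0.805 after CpG ODN and 0.789 after LPS. Counted per cell, Wnt4 had 3.16 UMIs in basal-like and 14.7 in upper cells after CpG ODN and 6.6 and 31.1 after LPS. Wnt11 was highest between the extremes, at 11.9 CPM (10.2 to 13.7) and 15.4 CPM (12.2 to 19.1) in clusters 1 and 4, 5.73 CPM (4.36 to 7.39) and 6.33 CPM (4.30 to 8.98) in basal-like cells and 2.97 CPM (2.03 to 4.19) and 2.79 CPM (1.65 to 4.41) in upper cells. Wnt5a was within 2-fold between the ends, 38.8 CPM (35.0 to 42.7) and 36.5 CPM (31.4 to 42.3) in basal-like against 29.9 CPM (26.7 to 33.3) and 30.2 CPM (26.1 to 34.8) in upper cells.

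**Figure D3:**
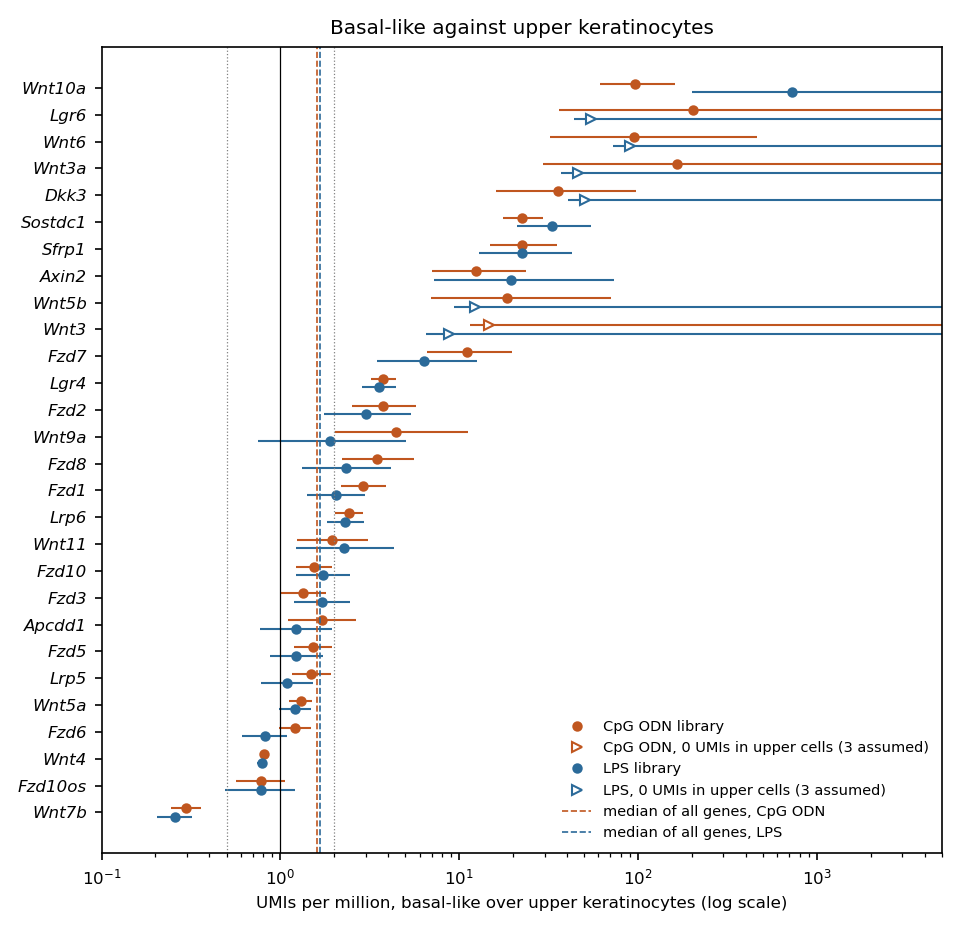
Ratio of CPM in basal-like over upper keratinocytes for the 28 members compared (log axis), with 95% counting intervals; open triangles mark members with 0 UMIs in upper cells, where 3 were assumed, dotted lines mark 2-fold and dashed lines the median of all genes. Points of 16 members lie right of the upper 2-fold line in both libraries and those of Wnt7b left of the lower one.

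Among the receptors compared in both libraries Lgr6 had the largest ratios. This R-spondin receptor, a known marker of skin stem cells, had 194 UMIs in basal-like cells and 1 in upper cells after CpG ODN. After LPS it had 124 and 0, which is 54.4-fold higher with 3 UMIs assumed in the upper cells (lower limit of the interval 43.6). Of the 2 clusters that make up the basal-like cells, the first (800 cells) held Lgr6 at 27.6 CPM (24.1 to 31.4) and the second (552 cells) at 12.9 CPM (10.4 to 15.9), over both libraries. Wnt10a was higher in the second, at 211 CPM (200 to 222) against 168 CPM (159 to 177). Fzd7 had 168 and 16 UMIs after CpG ODN, a ratio of 11.0, and 63 and 13 after LPS, a ratio of 6.38, but with layers set by keratin UMIs the ratios were 0.825 and 1.42. The ratios of Lgr4 were 3.75 and 3.55, those of Fzd2 3.76 and 3.03, of Fzd8 3.46 and 2.32, of Lrp6 2.41 and 2.31 and of Fzd1 2.90 and 2.04. With UMIs per cell the direction of Fzd1, Fzd8 and Lrp6 turned in both libraries and that of Fzd2 and Lgr4 turned after LPS, so these directions depend on the scaling. Fzd3, Fzd5, Fzd6, Fzd10 and Lrp5 passed 2-fold in neither direction. Among the layers with over 50 cells per library Fzd6 was highest in the lower spinous-like cells, at 26.1 CPM (23.8 to 28.4) and 30.1 CPM (26.7 to 33.8), and 19.6 CPM (17 to 22.5) and 16.3 CPM (12.9 to 20.3) in basal-like cells.

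Of the antagonists, 3 were over 2-fold higher in basal-like cells in both libraries. Sostdc1 had 1377 UMIs in basal-like and 64 in upper cells after CpG ODN, 134 CPM (127 to 141) against 5.94 CPM (4.57 to 7.58), which is a ratio of 22.5 (17.5 to 29.4), and 501 and 20 UMIs after LPS, a ratio of 33.0 (21.1 to 54.4). Sfrp1 had 515 and 24 UMIs, then 221 and 13, with ratios of 22.5 and 22.4. Dkk3 had 203 and 6 UMIs after CpG ODN, a ratio of 35.4 (16 to 97.7). After LPS it had 115 and 0, or 50.5-fold with 3 UMIs assumed in the upper cells (lower limit 40.4). Apcdd1 differed less, at 5.83 CPM (4.45 to 7.50) against 3.43 CPM (2.42 to 4.73) and 7.96 CPM (5.66 to 10.9) against 6.51 CPM (4.69 to 8.80). Summed, the antagonists were 210 CPM (201 to 219) and 180 CPM (168 to 192) in basal-like cells and 12.7 CPM (10.7 to 15) and 11.8 CPM (9.29 to 14.8) in upper cells. Axin2 followed them, with 153 and 13 UMIs after CpG ODN, 14.9 CPM (12.6 to 17.4) against 1.21 CPM (0.642 to 2.06), and 59 and 4 after LPS, 12.0 CPM (9.17 to 15.5) against 0.620 CPM (0.169 to 1.59). Its ratios were 12.3 (7 to 23.7) and 19.4 (7.19 to 73.6). With layers set by keratin UMIs they were 3.30 and 0.484, so that the direction turned after LPS, where 23 cells were basal.

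Among the other pathway genes 55 could be compared in both libraries, of which 26 were over 2-fold higher in basal-like cells (35.7% of all genes), 2 were lower (11.1%) and 27 were neither. Their median was 1.86 and 2.09 times the upper level, beside the 1.59 and 1.67 times of the median gene. The transcription factor genes Lef1 and Tcf7 were on the basal side, Lef1 with 66 and 1 UMIs after CpG ODN and 24 and 0 after LPS, Tcf7 with 134 and 11 and 62 and 1. Wls, which carries Wnt proteins to the cell surface, had ratios of 6.58 and 7.42, the ligase gene Rnf43 had 3.39 and 3.26, and Ccnd1, a cell cycle gene often used as a readout, had 31.5 and 51.9. Ctnnb1, which encodes β-catenin, was 336 against 190 CPM and 337 against 178 CPM and did not pass 2-fold. Ctnnbip1, an inhibitor that binds β-catenin, was lower in basal-like cells, at 76.3 against 1735 CPM and 70.0 against 1380 CPM.

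Other epithelial groups had patterns of their own. Cluster 7, led by Krt4, Krt13 and Barx2, was 187 cells (3.83%) after CpG ODN and 149 (11.7%) after LPS, and it held Wnt4 at 459 CPM (437 to 482) and 385 CPM (368 to 401), Wnt10a at 54.2 CPM (46.9 to 62.5) and 59.98 CPM (53.7 to 66.8), and Apcdd1 at 9.84 CPM (6.85 to 13.7) and 14.4 CPM (11.4 to 17.9). Wnt16 was found there at 4.22 CPM (2.36 to 6.95) and 3.78 CPM (2.34 to 5.78), above its 0.971 CPM (0.466 to 1.79) and 2.24 CPM (1.12 to 4.02) in basal-like cells, though the intervals overlap after LPS. Cluster 19, only 17 and 18 cells led by Odam among others, held Wnt5a at 122 CPM (81.9 to 176) and 122 CPM (95.4 to 153), beside 38.8 and 36.5 CPM in basal-like cells. The same cells held Wnt11 at 29.5 CPM (11.9 to 60.8) and 77.2 CPM (56.7 to 103), Fzd5 at 46.4 CPM (23.1 to 83.0) and 42.7 CPM (27.9 to 62.6), and Lgr6 at 84.3 CPM (51.5 to 130) and 32.8 CPM (20.1 to 50.7), but Sostdc1 with only 0 and 1 UMIs.

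Fibroblast-like cells were divided again, with the members and pathway genes held out, into 7 sub-clusters that are called by number and leading genes. Members were uneven among them. The 39 cells led by Grem1, Tnn and Crabp1 (F4, 36 after CpG ODN and 3 after LPS) held 215 of the 358 fibroblast-like UMIs of Apcdd1 (1150 CPM, 1002 to 1315) and 102 of the 185 of Dkk2 (546 CPM, 445 to 663). They also held 86 UMIs each of Wnt5a and Fzd1 (460 CPM, 368 to 568), 16 of the 24 of Rspo4, 14 of Wnt6 and 21 of Axin2 (112 CPM, 69.6 to 172). Of the 61 Wnt10a UMIs in fibroblast-like cells 48 lay in 12 of these 39 cells (257 CPM, 189 to 341), and 12 in the keratin-led cells described next. In F4 itself Wnt4 had 1 UMI and Sfrp4 and Fzd4 had 0.

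**Figure D4:**
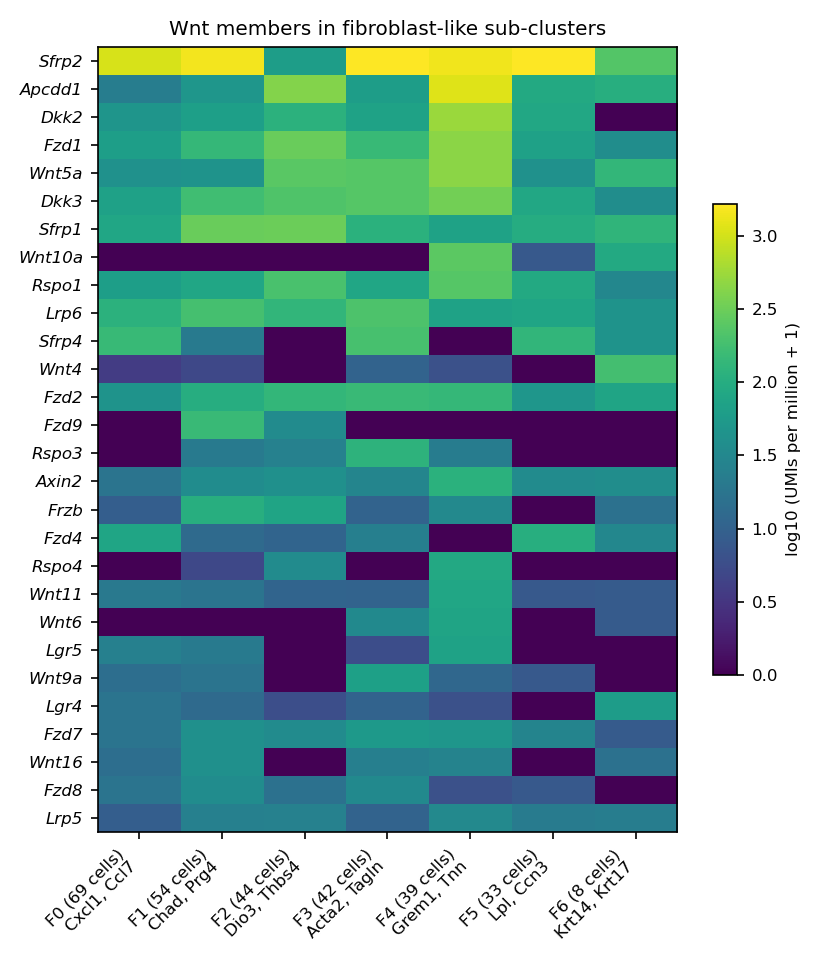
Levels of 28 members (rows) in the 7 fibroblast-like sub-clusters F0 to F6 (columns), over both libraries. F4 stands out for Apcdd1, Dkk2, Wnt5a, Fzd1 and Wnt10a, and F6, the 8 keratin-led cells, for Wnt4.

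Other sub-clusters held other members. The 54 cells led by Chad, Prg4 and Myoc (F1) held 37 of the 44 fibroblast-like UMIs of Fzd9 and 26 of the 54 of Frzb. The 42 cells led by Acta2, Tagln and Myl9 (F3) held 25 of the 39 of Rspo3 and 14 of the 26 of Wnt9a. Over both libraries, Sfrp2 was between 1061 and 1648 CPM in F0, F1, F3, F4 and F5. It had only 12 UMIs (59.9 CPM, 31.0 to 105) in the 44 cells led by Dio3, Thbs4 and Vcan (F2). In F3 nearly all Sfrp2 UMIs came from its LPS cells, as given below, so the pooled level does not describe F3 after CpG ODN. The 8 cells led by Krt14 and Krt17 (F6) had a median of 15529.5 UMIs and held 24 of the 29 Wnt4 UMIs and 8 of the 21 Lgr4 UMIs of the fibroblast-like class. With F6 left out the leading class was the same in all 41 members.

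Between the ligands, few epithelial levels of members lay more than 2-fold apart. Of 32 members compared in epithelial-like cells, 0 were over 2-fold higher after CpG ODN (2.03% of 13809 genes) and 3 were lower (3.26%), and no test stands behind these counts. The 3 had few UMIs: Sfrp2 with 12 after CpG ODN and 28 after LPS, a ratio of 0.228 (0.110 to 0.460), Wnt16 with 31 and 39, a ratio of 0.422, and Wnt10b with 9 and 11, a ratio of 0.435 whose interval holds 1. Of the 28 Sfrp2 UMIs after LPS, 18 lay in cluster 7 and 10 in 1 cell. With each library set to the same layer shares, the ratios were 0.293 for Sfrp2, 0.675 for Wnt16 and 0.723 for Wnt10b. The median member had a ratio of 0.923, beside 0.990 for the median gene.

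Smaller differences were beyond counting error in many members, as in many genes. The interval lay wholly below 1, a lower level after CpG ODN, in 12 of the 32 members beside 20.1% of all genes, and wholly above 1 in 1 member, Sostdc1, beside 15.6%. Sostdc1 was 40.8 CPM after CpG ODN and 28.6 CPM after LPS, a ratio of 1.43 (1.32 to 1.54), with a ratio of 1.31 in basal-like cells, 1.27 in clusters 1 and 4, 1.60 in lower spinous-like, 1.91 in upper and 3.80 in gland-like cells. The gland-like ratio spans clusters whose shares differed between the libraries, as given at the end. Of the 2 basal-like clusters, the first gave 132 against 123 CPM, a ratio of 1.07 (0.941 to 1.23), and the second 135 against 76.9 CPM, a ratio of 1.76 (1.48 to 2.10). Cluster 7 went the other way, at 14.6 CPM (10.9 to 19.2) after CpG ODN and 18.7 CPM (15.3 to 22.7) after LPS, with overlapping intervals. Wnt6 (0.67), Wnt7b (0.67), Wnt3a (0.71) and Wnt10a (0.81) were on the other side. Weighted to the same layer shares these became 0.670, 0.765, 0.664 and 0.804, whereas Wnt4 went from 0.898 (0.878 to 0.919) to 0.989 and Sostdc1 from 1.43 to 1.28. With 1 library per ligand the spread between mice is unknown, and these ratios may not exceed it.

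**Figure D5:**
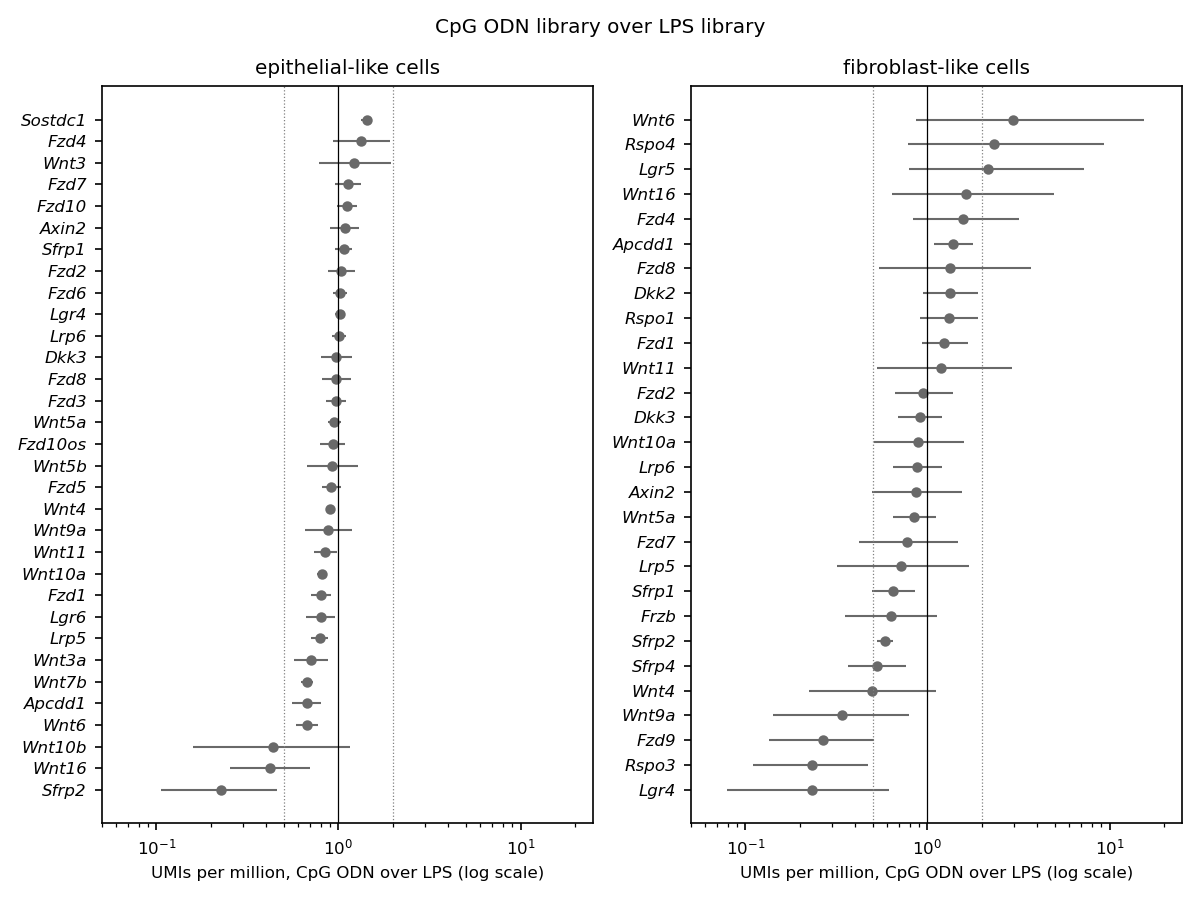
Ratio of CPM after CpG ODN over LPS for 32 members in epithelial-like cells and 28 members in fibroblast-like cells (log axis), with 95% counting intervals that do not cover the spread between mice. Sostdc1 lies right of 1 in the epithelium, and Rspo3, Fzd9 and Lgr4 lie left of the lower 2-fold line in fibroblast-like cells.

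Layer by layer the count was as low. In basal-like cells 0 of 30 members were over 2-fold higher after CpG ODN (1.12% of genes) and 1 was lower (1.10%), Wnt16 with 10 and 11 UMIs. In lower spinous-like cells 0 of 23 were higher (1.34%) and 1 was lower (1.21%), Axin2 with 23 UMIs after CpG ODN and 27 after LPS, a ratio of 0.418. In upper cells 1 of 20 was higher (2.73%), Wnt10a with 19 and 2 UMIs and a ratio of 5.68 (1.37 to 50.3), and 0 were lower (3.10%).

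In fibroblast-like cells, 3 of 28 members were over 2-fold higher after CpG ODN, beside 5.0% of 7603 genes, and 5 were lower, beside 3.67%. The 3 were Wnt6 with 19 and 3 UMIs, Rspo4 with 20 and 4 and Lgr5 with 23 and 5, and the interval of each ratio held 1. The 5 were Lgr4 with 7 and 14 UMIs (0.233, 0.080 to 0.620), Rspo3 with 13 and 26 (0.233, 0.110 to 0.470), Fzd9 with 16 and 28 (0.266, 0.130 to 0.510), Wnt9a with 11 and 15 (0.341) and Wnt4 with 15 and 14 (0.499). Intervals wholly below 1 were found in 7 of the 28 members beside 6.34% of genes, and wholly above 1 in 1, Apcdd1, beside 5.85%. Besides 4 of those named, the former were Sfrp2 at 0.58 (0.53 to 0.65), Sfrp4 at 0.53 (0.37 to 0.77) and Sfrp1 at 0.65.

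These fibroblast-like values moved with single cells and sub-clusters. After LPS 20 of the 28 Fzd9 UMIs, 14 of the 26 Rspo3 UMIs and 33 of the 58 Sfrp4 UMIs came from 1 cell each, as did 29 of the 66 Sfrp4 UMIs after CpG ODN, and 13 of the 14 Wnt4 UMIs lay in the keratin-led F6. F3 was 28 of the 236 cells after CpG ODN and 14 of the 53 after LPS, and held 22 of the 26 Rspo3 UMIs, 13 of the 15 Wnt9a UMIs and 338 of the 727 Sfrp2 UMIs after LPS, against 3, 1 and 11 after CpG ODN. The 3 cells of F4 after LPS held 60 of the 90 Apcdd1 UMIs, where 36 cells held 155 of 268 after CpG ODN. The part of these cells in the ratios was not tested beyond the alternatives given at the end.

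Among the other pathway genes, 68 were compared in epithelial-like cells. Nkd1 was over 2-fold higher after CpG ODN (2.03% of all genes) while Porcn and Nkd2 were lower (3.26%). The epithelial-like levels of Nkd1, given above, were low and their intervals overlap. Porcn, the enzyme that attaches the lipid to Wnt proteins, had 109 UMIs after CpG ODN and 172 after LPS, a ratio of 0.337 (0.262 to 0.431). In fibroblast-like cells 59 were compared, of which 7 were higher (Notum, Gpc4, Lrp4, Vangl1, Prickle1, Tle2 and Ccnd1), beside 5.0% of all genes, and 4 lower (Gpc6, Tnks2, Tnfrsf19 and Myc), beside 3.67%. Notum, which removes the lipid from Wnt proteins, had 24 and 2 UMIs, a ratio of 5.58 (1.39 to 48.7), and Ccnd1 had 74 and 8, a ratio of 4.30 (2.07 to 10.3).

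Shares of cells with a UMI showed the same divisions. In the epithelial-like class 87.9% of the CpG ODN cells and 94.7% of the LPS cells had a Wnt4 UMI, and 31.5% and 33.6% did when each cell was thinned to 1500 UMIs. B-like cells, which are not known to make it, had 0.351% and 1.45% unthinned and 0.117% and 0.579% thinned, with median depths of 2150 and 3157 UMIs against 13255 and 27075. Wnt10a had a UMI in 71.2% and 92.1% of basal-like cells (thinned, 21.5% and 27.3%) and in 3.95% and 2.13% of upper cells (thinned, 0.222% and 0.046%), although the upper cells were the deeper ones, and in 0 of 285 and 0 of 69 B-like cells, which with 3 cells allowed for a count of 0 leaves shares of cells with a UMI of up to 1.05% and 4.35% at the low depth of these cells. Sfrp2 had a UMI in 43.2% and 60.4% of fibroblast-like cells (thinned, 34.0% and 46.6%, with 1 CpG ODN cell left out as too shallow), with up to 63 UMIs in 1 cell after CpG ODN and 93 after LPS, and in 0 of the same B-like cells, at median depths of 4065.5 and 8707 UMIs against 2150 and 3157.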

How the data were processed

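For each of the 2 libraries the authors deposited raw counts of UMIs per gene and barcode, in filtered Cell Ranger matrices (version 4.0.0, per the file headers); the genome build and annotation of that step are not given in the sources used here. Coordinates came from GENCODE M21 (GRCm38), which holds all 52 member identifiers. The members and lists were chosen with earlier results of these data known. Barcodes with 800 or more detected genes were taken as cells, the limit of the study's methods, without a mitochondrial filter, and 0 columns were left unmapped. Each cell was scaled to 10000 UMIs before the log, 130 genes (members and other pathway genes) were held out, and 2000 variable genes, 30 principal components and 15 neighbours were clustered by the Leiden algorithm at resolution 1. Classes were named from marker lists, with the scoring set after the data were seen. Doublets were kept; a re-implementation of Scrublet's method called 51 cells (1.04%) after CpG ODN and 0 after LPS, so it cannot be taken to have worked for LPS.

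UMIs were summed per class and library. CPM carried exact Poisson intervals, ratios exact conditional binomial intervals and cell shares exact Clopper-Pearson intervals, all at 95%, and PCR duplicates are removed by UMIs. Where no UMI was counted 3 were allowed, and genes needed 20 UMIs to be compared. Members with at least 100 UMIs were described and those past 2-fold with at least 20 UMIs were named; single sub-cluster and cell values were chosen after they were seen. Shares were also thinned to 1500 UMIs per cell. Python 3.11.15, numpy 2.4.6, scipy 1.17.1, pandas 2.3.3, scikit-learn 1.9.0, leidenalg 0.10.2, igraph 0.11.9, scikit-image 0.26.0 and matplotlib 3.10.9 were used, and the scripts were tested on simulated data. Promoter sequences came from RefSeq (GRCm38.p6). Alternatives covered the clustering resolution, separate clustering, doublets, thresholds, scaling, gates on Krt5 and Col1a1, layers by keratin UMIs and left-out clusters.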

Additional observations from a re-analysis of the deposited data

Results flagged for a closer look

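In 4 members the CpG ODN over LPS ratio lay on opposite sides of 1 in different classes, each with a counting interval that excludes 1; the difference between classes was not tested. Apcdd1 had ratios of 0.669 in epithelial-like, 1.39 in fibroblast-like and 2.85 in gland-like cells. Lgr4 had 0.233 in fibroblast-like and 1.60 in gland-like cells, Sfrp1 0.650 and 2.10 in the same classes, and Wnt4 0.898 in epithelial-like and 1.89 in gland-like cells. The gland-like class had 109 cells after CpG ODN and 66 after LPS. It joined cluster 12, led by Wfdc18, Reg3g and Ltf (97 and 52 cells, median 11075 UMIs), and cluster 21, led by Tff2 and Muc5b (12 and 14 cells, median 26614 UMIs). Their shares differed between the libraries, and the part of this in the ratios was not tested.

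Members were also found in cells and barcodes that the comparisons did not use. In the Schwann-like cells (23 and 11 cells) Fzd3 had 11, Sfrp5 19 and Sostdc1 26 UMIs, and the 19 UMIs of Sfrp5 were most of its 26 in all cells. In cluster 22, an unnamed cluster of 17 cells led by Pcp4, Cnn1 and Actg2, Sfrp1 had 50, Sostdc1 20, Fzd7 19 and Lgr4 11 UMIs. In the barcodes with fewer than 800 detected genes Wnt4 had 62, Lrp6 27 and Sfrp2 21 UMIs.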

How the results depend on the processing

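No paired analysis was possible because only 1 library was made for each ligand. Of 119 counts recomputed under the alternatives 105 kept to within 1.5 times their value, and of 1355 ratios of single members 1150 stayed within their counting interval. With each library clustered on its own, 4 members were highest in epithelial-like cells in place of 8. The 5 members lower after CpG ODN in fibroblast-like cells became 3 without doublets and the 2% of cells with the most UMIs, 0 with a minimum of 50 UMIs, 9 at 1.5-fold and 3 without the keratin-led cells, and the 3 higher became 0 with that minimum and 5 at 1.5-fold. The 3 lower in epithelial-like cells became 1 as a mean over cells, 1 with the minimum of 50 UMIs and 1 without cluster 7. The 16 members higher in basal-like cells became 8 with layers set by keratin UMIs and 10 as UMIs per cell. With keratin layers only 90 and 23 cells were basal. The 1 lower became 3 with ratios divided by the median and 10 as UMIs per cell. The shares of all genes under the alternatives are not given, so these counts have no background. Directions turned for Wnt4 after CpG ODN over LPS in fibroblast-like cells chosen by Col1a1 without Krt5 (2.75). With keratin layers the basal-like over upper ratio turned for Axin2 (0.484) and Wnt7b (1.47) after LPS and for Fzd2 (0.733) and Fzd7 (0.825) after CpG ODN. As UMIs per cell it turned for Fzd1 (0.774 after CpG ODN, 0.547 after LPS), Fzd8 (0.926, 0.623), Lrp6 (0.645, 0.620), and after LPS for Fzd2 (0.813) and Lgr4 (0.952). The cause of these was not tested, except that a per-cell count is larger in the deeper upper cells by construction. UMIs per cell, leaving out cluster 7 and leaving out the keratin-led cells were chosen after seeing the data. Members under 20 UMIs could not be compared at this depth, and the fibroblast-like comparison rests on 53 cells with a median of 8707 UMIs after LPS.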
